A study of Mus musculus with 12 samples.

Results

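The 7 genes of cholesterol synthesis described here are Hmgcs1, Idi1, Fdps, Fdft1, Sqle and Lss, which encode enzymes, and Insig1, which encodes a regulator. They were taken by gene symbol from a table of raw counts. All 7 were found among its 36512 genes, and all 7 were among the 21285 genes with enough counts to be tested. The set was labelled as synthesis and uptake enzymes, but none of the 7 encodes a lipoprotein receptor and Insig1 is not an enzyme, so uptake genes are given separately further on.

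The cells came from wild-type CD-1 mouse pups at 3 days of age, males and females mixed, with no treatment and no transgene named. Aorta and the fat around it were removed, digested with enzymes and sorted by flow cytometry into 4 populations, each with 3 libraries, that the labels call progenitor, intermediate, smooth muscle and preadipocyte. No source used here gives the sort gates or the number of pups behind each library, so the names are those of the labels, and p-values measure only the spread between these libraries, which may be technical. RNA was amplified from low input with a chemistry that copies poly(A) transcripts at full length. The comparisons ask how the sorted populations differ in the RNA of these genes.

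Mammalian cells build cholesterol from acetyl-CoA through mevalonate, isoprenoid diphosphates, squalene and lanosterol, or take it up with lipoproteins. The transcription factor SREBP-2, encoded by Srebf2, drives most genes of the pathway when sterols in the endoplasmic reticulum are low. INSIG proteins hold its escort SCAP in that membrane when sterols are high. Fat cells hold a large store of mostly free cholesterol, and smooth muscle cells of the artery wall are known for taking up lipoprotein cholesterol in disease.

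Promoter sequence was in hand for 4 of the 7 genes: Hmgcs1, whose RNA varied little among the populations, and Idi1, Lss and Insig1, whose RNA varied most. Each RefSeq window (GRCm38.p6) holds 300 bases on the plus strand, with the annotated start 50 bases before its end. Capitals mark the NF-Y box CCAAT, read as ATTGG where it lies on the other strand, and, in Hmgcs1, the core of a sterol regulatory element. The windows are chr13:119690101-119690400 for Hmgcs1, chr13:8885356-8885655 for Idi1, chr10:76531355-76531654 for Lss and chr5:28071162-28071461 for Insig1.
Hmgcs1: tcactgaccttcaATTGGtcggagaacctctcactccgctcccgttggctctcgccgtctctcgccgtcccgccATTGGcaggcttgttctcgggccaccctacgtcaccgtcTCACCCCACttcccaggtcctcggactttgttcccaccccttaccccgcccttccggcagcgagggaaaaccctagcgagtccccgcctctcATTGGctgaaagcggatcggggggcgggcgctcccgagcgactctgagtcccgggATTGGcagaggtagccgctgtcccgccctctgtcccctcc
Idi1: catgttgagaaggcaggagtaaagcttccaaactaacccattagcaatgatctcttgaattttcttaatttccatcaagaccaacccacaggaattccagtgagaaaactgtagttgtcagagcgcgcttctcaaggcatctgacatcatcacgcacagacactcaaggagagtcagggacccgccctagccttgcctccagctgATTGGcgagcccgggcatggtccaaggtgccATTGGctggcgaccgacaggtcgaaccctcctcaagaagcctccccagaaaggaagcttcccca
Lss: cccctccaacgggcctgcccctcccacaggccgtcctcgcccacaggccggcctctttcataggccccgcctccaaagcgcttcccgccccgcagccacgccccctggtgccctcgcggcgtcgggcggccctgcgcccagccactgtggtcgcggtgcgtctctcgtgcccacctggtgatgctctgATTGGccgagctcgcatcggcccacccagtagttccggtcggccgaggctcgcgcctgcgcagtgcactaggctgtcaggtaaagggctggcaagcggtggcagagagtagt
Insig1: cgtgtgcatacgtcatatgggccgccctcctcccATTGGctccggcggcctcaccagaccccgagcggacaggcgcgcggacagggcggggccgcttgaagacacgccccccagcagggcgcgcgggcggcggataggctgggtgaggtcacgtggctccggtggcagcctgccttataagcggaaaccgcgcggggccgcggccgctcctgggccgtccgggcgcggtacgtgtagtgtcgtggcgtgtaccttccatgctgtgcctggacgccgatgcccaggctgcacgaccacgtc
The NF-Y box, searched on both strands, was in all 4 windows, with 4 matches in Hmgcs1, 2 in Idi1 and 1 each in Lss and Insig1, and in 37.4% of all 32851 windows. The sterol regulatory element core TCACNCCAC was found once in Hmgcs1, at bases 114 to 122, and in none of the other 3 windows, against 1.24% of all windows. The Sp1 box GGGCGG was in all 4 windows and in 35.7% of all windows, and the E-box CACGTG was in Insig1 alone among the 4 and in 7.15% of all windows. No match of one motif overlapped a marked match of another. These are matches of letters, and binding was not measured. Among 14 other enzymes of the pathway with a window, 12 held the NF-Y box, 13 the Sp1 box and 3 the E-box, and 0 held the sterol element core. Only the string TCACNCCAC was searched for that core. Elements spelled otherwise would be missed, so a window without a match is not shown to lack a sterol element.

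Libraries held 11701825 to 17123109 counts. Markers were set against the labels of 3 populations, and no marker list was run for intermediate cells. Summed levels of 6 fat cell markers were 4590 to 7340 CPM among preadipocyte libraries and at most 1900 CPM elsewhere, those of 6 smooth muscle markers were 6820 to 7490 CPM among smooth muscle libraries and at most 1180 CPM elsewhere, and those of 6 progenitor markers were 2740 to 3210 CPM among progenitor libraries and at most 874 CPM elsewhere. Within the progenitor list, Dpp4 averaged 93.2 CPM among progenitor and 76.6 CPM among smooth muscle libraries. CPM here are counts after TMM scaling of library size. Markers of other cells also differed. Preadipocyte libraries were highest in 12 cell division genes (1940 to 3270 CPM against at most 848) and in 7 red blood cell genes (1010 to 16900 CPM against at most 295), with the value of 16900 in replicate 3. Smooth muscle libraries were highest in the sums of 8 Schwann cell (196 to 242 CPM), 8 sympathetic neuron (799 to 1080 CPM) and 6 mesothelial genes (1040 to 1420 CPM). They were also highest in counts spread over 1066 olfactory and vomeronasal receptor genes (0.161 to 0.233 CPM per kilobase of exon by library size, against 0.0083 to 0.0713). Within the Schwann cell list S100b went the other way, averaging 16.6 CPM among progenitor and 5.53 CPM among smooth muscle libraries. Immediate early and heat shock genes, 12 in the list, summed to 21700 to 22700 CPM among progenitor and 17700 to 19000 among intermediate libraries. Their sums were 12800 to 14000 CPM among smooth muscle and 6520 to 10700 among preadipocyte libraries. Within this list Nr4a1, Hspa1a and Hspa1b averaged more among intermediate and smooth muscle than among progenitor libraries, Nr4a1 at 1654 and 1757 against 1223 CPM. Fosb averaged 912 CPM among intermediate and 590 among progenitor libraries. In smooth muscle against progenitor libraries 3 of the 12 were higher (30.5% of all genes) and 8 lower (23.6%). Endothelial markers summed to at most 186 CPM, leukocyte markers to at most 40.4 and steroid-making cell markers to at most 16.8 CPM in every library. Endothelial genes were not alike: Tek averaged 116.5 CPM among progenitor libraries and at most 15.8 in the other populations. Vwf averaged 1.36 CPM among progenitor libraries and 40.6 to 49.1 in the other populations. Of the 8 endothelial genes, 6 were higher (25.1% of all genes) and 1 lower (25.9%) in preadipocyte against progenitor libraries. The part of any of these in the results was not tested, and in bulk RNA fewer cells of a type and less RNA per cell cannot be told apart. Preadipocyte replicates 2 and 3 stood apart in ways that touch these genes, so called differences of the 7 genes against preadipocyte libraries are also given without each. Of 72 preadipocyte comparisons of the other genes named by rule and reported here, 59 passed with all libraries, 57 of these also passed in the same direction without replicate 2 and 59 without replicate 3. The exceptions, both without replicate 2, were Scd1 against progenitor and Pmvk between smooth muscle and preadipocyte libraries.

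The 7 genes fell into an upper and a lower group by level per length, which allows genes to be compared. Insig1, Hmgcs1 and Sqle stood highest in every population, at 28.9 to 66.0 CPM per kilobase of transcript as population means. Fdft1 followed at 12.9 to 16.7, Idi1 at 6.76 to 13.3 and Lss at 2.77 to 8.39. Fdps was lowest, at 1.11 to 1.73 CPM per kilobase. The order from Fdft1 down to Fdps was the same in all 4 populations, whereas the first place went to Insig1 in 3 populations and to Sqle in smooth muscle libraries. By the F test for any difference among the 4 populations, 4 of the 7 genes passed at an adjusted p under 0.05, against 79.8% of all genes tested. They were Lss (edgeR adjusted p = 9.63e-06), Idi1 (0.000213), Insig1 (0.00074) and Fdft1 (0.0311). The ratio of the highest to the lowest population mean had a median of 1.55 over the 7 genes and 2.98 over all genes, and 2 of 7 reached 2-fold, against 70.4% of all genes. The difference between the 7 genes and all genes was not tested, and the 7 were not matched by level to the genes they are set beside.

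**Figure D1:**
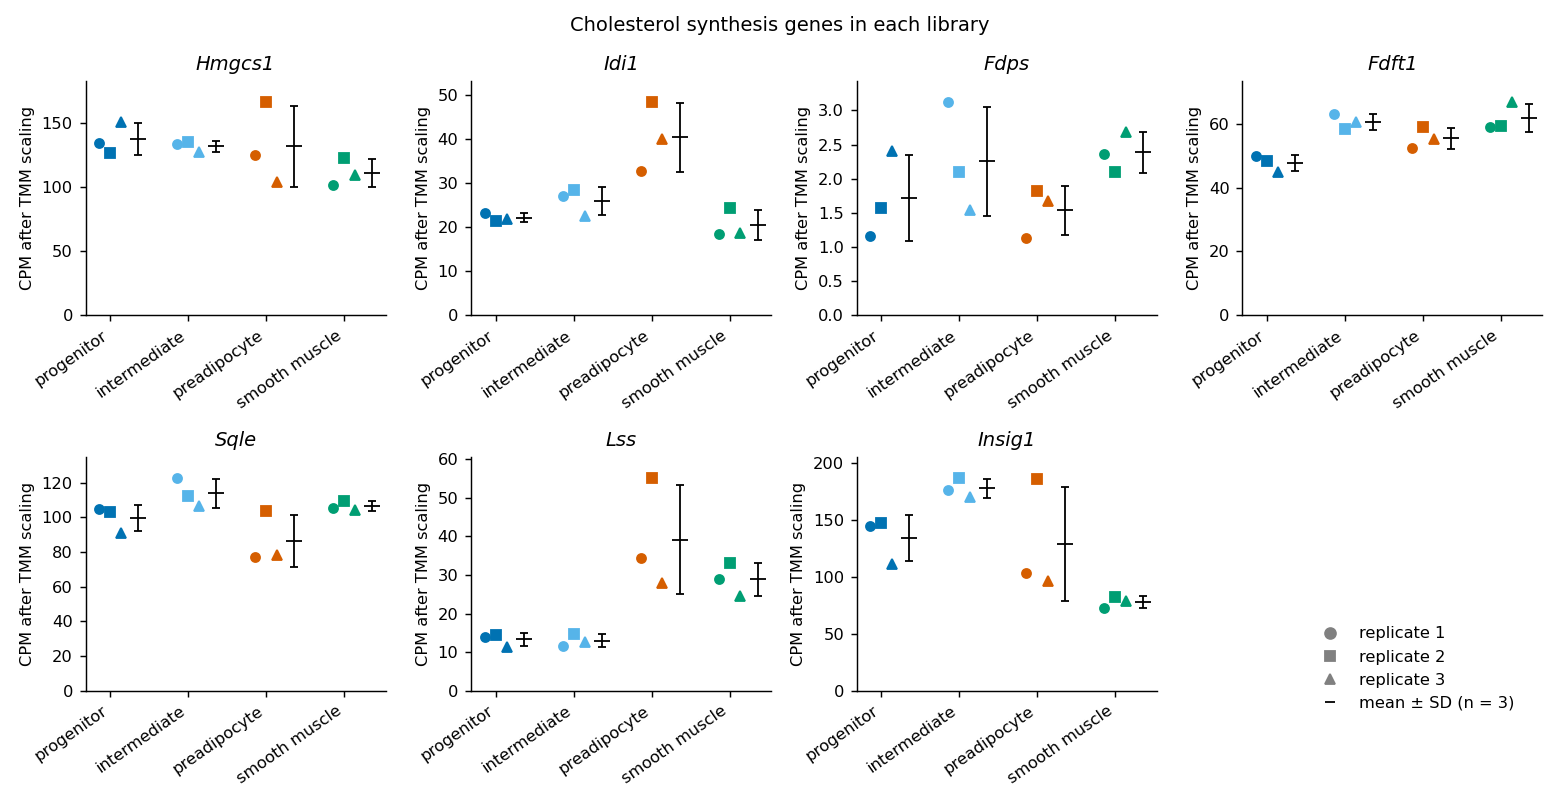
CPM after TMM scaling (vertical axis, from 0) of each of the 7 genes in the 12 libraries, by population on the horizontal axis; symbols are replicates and bars are mean ± SD, n = 3. Lss lies at 28.0 to 55.1 CPM among preadipocyte and 24.5 to 33.0 CPM among smooth muscle libraries and at no more than 14.8 CPM in the others, while the preadipocyte libraries of Hmgcs1 spread over the range of the other 3 populations.

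Hmgcs1 encodes the cytosolic HMG-CoA synthase, which makes the precursor of mevalonate. Its level was 135, 127 and 151 CPM among progenitor replicates 1 to 3, 134, 136 and 127 among intermediate, 125, 166 and 104 among preadipocyte and 101, 123 and 110 among smooth muscle libraries. Smooth muscle libraries lay below all progenitor and intermediate libraries, while preadipocyte libraries spread over the range of the other 3 populations and held the highest of the 12, replicate 2. Means ran from 138 ± 12.4 CPM (SD, n = 3) among progenitor to 111 ± 10.9 CPM among smooth muscle libraries, and the F test gave an edgeR adjusted p of 0.272, so no order of the populations was shown. Without preadipocyte replicate 2, smooth muscle against progenitor passed at -0.30 (edgeR adjusted p = 0.0354). On mm10 the gene lies on chromosome 13 from 119690379 to 119708260. Of its transcript, 16.2% is shared with Gm48342, which overlaps it on the opposite strand. Counts of Gm48342 came to 71 over all libraries, against 22392 for Hmgcs1.

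Idi1 encodes the isopentenyl-diphosphate isomerase, which supplies the starter unit of the isoprenoid chain. Its level was 23.2, 21.4 and 21.8 CPM among progenitor, 27.0, 28.4 and 22.4 among intermediate, 32.8, 48.4 and 40.1 among preadipocyte and 18.5, 24.3 and 18.6 CPM among smooth muscle libraries. Each preadipocyte library lay above every library of the other 3 populations, which overlapped among themselves. Preadipocyte libraries were higher than progenitor by 0.87 ± 0.17 on the log2 scale (SE, edgeR adjusted p = 0.000407) and than intermediate by 0.64 ± 0.17 (edgeR adjusted p = 0.00407). Smooth muscle libraries were lower than preadipocyte, with a log2 fold change of -0.98 ± 0.17 (edgeR adjusted p = 0.000111). Progenitor, intermediate and smooth muscle libraries did not pass the test against each other. Without preadipocyte replicate 2 these 3 differences were 0.72, 0.49 and -0.83, and without replicate 3 they were 0.87, 0.64 and -0.98. Idi1 lies on chromosome 13 from 8885501 to 8892451 (mm10), and 33.3% of its transcript is shared, at 97% identity or more, with transcripts of 3 other genes whose own counts came to 203 over all libraries, against 4896 for Idi1.

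Fdps and Fdft1 encode farnesyl diphosphate synthase and squalene synthase, which build the farnesyl chain and join a pair of them. Fdps was counted at 15 to 38 reads per library, or 1.13 to 3.12 CPM. Its population means were 1.72 ± 0.636 CPM (SD, n = 3) among progenitor, 2.26 ± 0.798 among intermediate, 1.54 ± 0.358 among preadipocyte and 2.38 ± 0.293 among smooth muscle libraries, with an edgeR adjusted p of 0.263 for any difference. Of its transcript, 91.4% is shared at 97% identity or more with transcripts of 2 other genes, 1 of which overlaps it on the same strand, so its counts are uncertain and its low level cannot be read as little RNA.

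Fdft1 was lowest in progenitor libraries, at 49.8, 48.4 and 44.7 CPM. It stood at 63.0, 58.2 and 60.5 CPM among intermediate, 52.3, 58.9 and 55.3 among preadipocyte and 59.0, 59.3 and 66.7 among smooth muscle libraries. All 3 progenitor libraries lay below the other 9, which overlapped among populations. The difference was small, 0.35 ± 0.12 on the log2 scale for intermediate (edgeR adjusted p = 0.0376) and 0.37 ± 0.12 for smooth muscle (edgeR adjusted p = 0.0136) against progenitor. Both depended on choices: without the low-count filter they were 0.12 and -0.11, and with the replicate number as a block the intermediate call ended at an edgeR adjusted p of 0.0607. The intermediate call also ended without smooth muscle replicate 1 or 2 and the smooth muscle call without smooth muscle replicate 3. Exons of Fdft1 (chromosome 14, 63145150 to 63179578) overlap those of Ctsb on the opposite strand by 774 bases. Of its transcript, 54.7% is shared on either strand with 2 other genes, which can include that overlap. The closest copy, Gm6781, covers 1248 bases. With strand of counting not given, the level of Fdft1 is uncertain.

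Sqle encodes squalene epoxidase, which carries out the first oxidation of squalene. It stood at 105, 103 and 90.8 CPM among progenitor, 123, 112 and 106 among intermediate, 77.3, 104 and 78.5 among preadipocyte and 106, 110 and 104 CPM among smooth muscle libraries. Preadipocyte replicates 1 and 3 were the lowest of the 12 libraries, while replicate 2 lay among the others. The F test gave an edgeR adjusted p of 0.0644. Of the 6 pairs, preadipocyte against intermediate passed, with a log2 fold change of -0.40 ± 0.13 (edgeR adjusted p = 0.0186). This call held under 9 of 21 alternatives. It ended under 11, among them DESeq2 (-0.27, adjusted p = 0.14) and each fit without 1 progenitor or intermediate library or without preadipocyte replicate 1. Scaling by library size alone reversed the fold change, to 0.03. The fold change was -0.55 without preadipocyte replicate 2 and -0.33 without replicate 3. Sqle lies on chromosome 15 from 59315077 to 59331192 (mm10), with no overlapping gene and no near-identical copy found.

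Lss encodes lanosterol synthase, which closes the ring of the product of squalene epoxidase. It differed most among the 7 genes. Its level was 13.97, 14.5 and 11.4 CPM among progenitor, 11.5, 14.8 and 12.5 among intermediate, 34.4, 55.1 and 28.0 among preadipocyte and 29.0, 33.0 and 24.5 CPM among smooth muscle libraries. The 6 preadipocyte and smooth muscle libraries all lay above the 6 progenitor and intermediate libraries, and within each of these pairs of populations the libraries overlapped. Against progenitor, Lss was higher by 1.56 ± 0.22 on the log2 scale in preadipocyte (edgeR adjusted p = 2.32e-05) and by 1.12 ± 0.22 among smooth muscle libraries (edgeR adjusted p = 0.000679). Against intermediate the differences were 1.59 ± 0.22 (edgeR adjusted p = 1.70e-05) and 1.15 ± 0.22 (edgeR adjusted p = 0.000932). The preadipocyte differences from progenitor and intermediate were 1.23 and 1.27 without replicate 2, and 1.75 and 1.78 without replicate 3. With an even background subtracted, measured on receptor genes and chosen after seeing the data, all 4 calls held. Smooth muscle against preadipocyte gave -0.44 (edgeR adjusted p = 0.0819), was called under 12 of 21 alternatives and was -0.11 without preadipocyte replicate 2. Lss lies on chromosome 10 from 76531588 to 76557138 (mm10), and 5.6% of its transcript is shared with another gene that overlaps it on the opposite strand.

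Insig1 encodes the sterol-sensing anchor of SCAP and is itself a target of SREBP. Its level was 145, 148 and 112 CPM among progenitor, 176, 187 and 170 among intermediate, 104, 187 and 96.9 among preadipocyte and 72.5, 82.9 and 78.6 CPM among smooth muscle libraries. Every smooth muscle library lay below all 9 others, and every intermediate library lay above all progenitor libraries. Preadipocyte libraries did not form 1 level: replicate 2 reached the intermediate libraries and replicates 1 and 3 lay below all progenitor libraries. Smooth muscle libraries were lower than intermediate, with a log2 fold change of -1.19 ± 0.20 (edgeR adjusted p = 0.000313), than progenitor (-0.79 ± 0.20, edgeR adjusted p = 0.00427) and than preadipocyte (-0.73 ± 0.20, edgeR adjusted p = 0.00526). The difference from progenitor missed the threshold with library size alone (-0.34, edgeR adjusted p = 0.117), and that from preadipocyte was -0.37 without preadipocyte replicate 2 and -0.90 without replicate 3. Progenitor, intermediate and preadipocyte libraries did not pass against each other, preadipocyte against intermediate giving -0.46 (edgeR adjusted p = 0.0604). Without preadipocyte replicate 2 this was -0.83 (edgeR adjusted p = 0.000136), intermediate against progenitor passed at 0.40 and preadipocyte against progenitor passed at -0.42. Insig1 lies on chromosome 5 from 28071363 to 28078662 (mm10). Of its transcript, 7.0% is shared with Gm37784, whose counts came to 60 over all libraries, against 22205 for Insig1.

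Counted by comparison, preadipocyte against progenitor had 2 of 7 genes higher (background 25.1%), Idi1 and Lss, and 0 lower (25.9%). At an adjusted p under 0.05 Sqle and Insig1 were lower without preadipocyte replicate 2. Intermediate against progenitor had 1 of 7 higher (14.1%), Fdft1, and 0 lower (13.4%). Smooth muscle against progenitor had 2 higher (30.5%), Fdft1 and Lss, and 1 lower (23.6%), Insig1. Preadipocyte against intermediate had 2 higher (26.0%), Idi1 and Lss, and 1 lower (31.1%), Sqle. Smooth muscle against intermediate had 1 higher (15.7%), Lss, and 1 lower (13.1%), Insig1. Smooth muscle against preadipocyte had 0 higher (40.7%) and 2 lower (25.9%), Idi1 and Insig1. Without preadipocyte replicate 3 this last count of lower genes was 4. The shares in brackets are those of all genes tested that were called in the same direction. With 7 genes, 1 gene more or less moves each share widely, and nothing particular to the set is read from these counts. The median size of the log2 fold change over the 7 genes was 0.20 for preadipocyte against progenitor, 0.23 for intermediate against progenitor and 0.37 for smooth muscle against progenitor, beside 0.80, 0.48 and 0.68 over all genes. Here too the 7 genes were not matched by level to all genes. The comparisons share libraries, so they are not independent of each other.

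**Figure D2:**
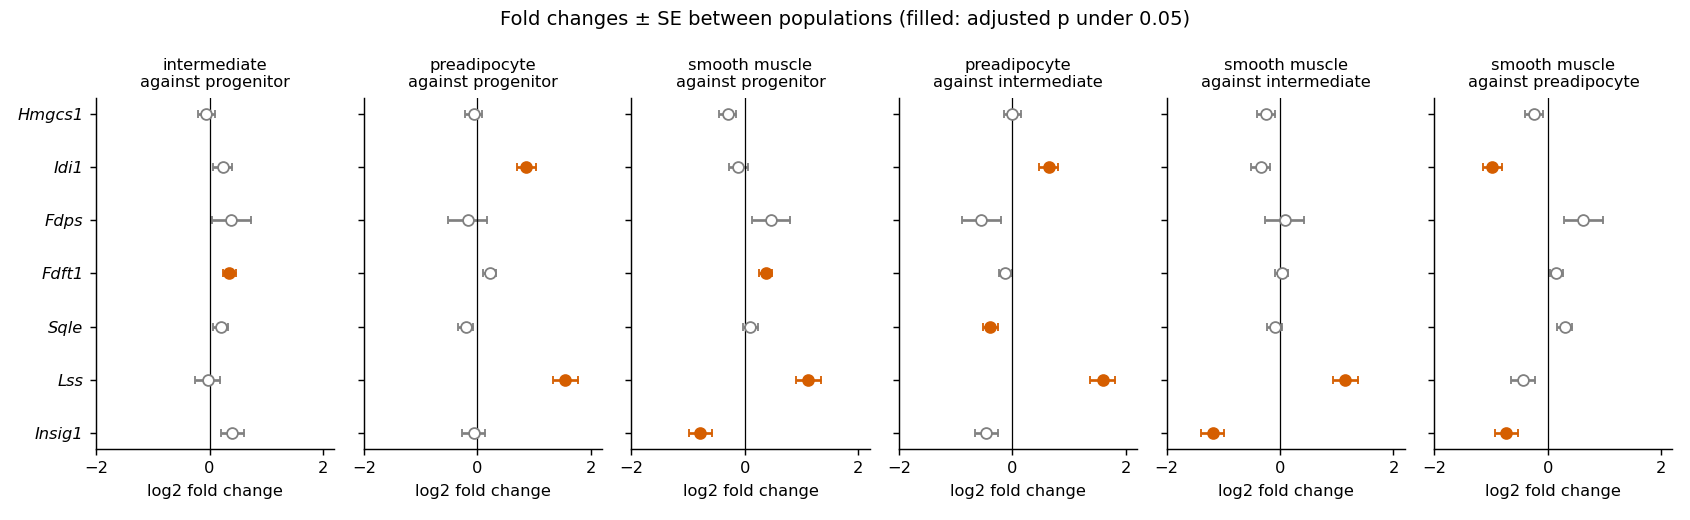
Log2 fold changes (horizontal axis) with SE bars for the 7 genes (rows) in the 6 pairwise comparisons (panels), from 1 edgeR model over 12 libraries; filled points passed at an adjusted p under 0.05. Filled points lie to the right for Lss in the 4 panels that set preadipocyte or smooth muscle against progenitor or intermediate, and to the left for Insig1 in the 3 smooth muscle panels.

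Ratios of counts within a library do not depend on scaling between libraries. The ratio of Lss to Sqle, which act in successive steps, was 0.134, 0.141 and 0.125 among progenitor, 0.0937, 0.132 and 0.118 among intermediate, 0.445, 0.530 and 0.356 among preadipocyte and 0.275, 0.301 and 0.236 among smooth muscle libraries. Preadipocyte libraries had the highest ratios, smooth muscle libraries the next, and neither overlapped any other population. The ratio of Idi1 to Hmgcs1 was 0.312 ± 0.0639 (SD, n = 3) among preadipocyte libraries, above the 0.162 ± 0.0150, 0.196 ± 0.0174 and 0.183 ± 0.0140 of progenitor, intermediate and smooth muscle libraries without overlap. Each of these separations gave a two-sided exact permutation p of 0.1, the smallest that 3 libraries against 3 allow. The ratios show unequal levels of the genes and not which of them changed.

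The other 16 enzymes of the pathway, counted here with the scaffold Erg28 among them, included calls in both directions. Against progenitor, 4 of the 16 were higher (25.1% of all genes) and 1 lower (25.9%) in preadipocyte libraries, and the lower count was 2 without preadipocyte replicate 2 or 3. Against intermediate, 6 were higher (26.0%) and 7 lower (31.1%) in preadipocyte libraries. The lower count fell to 3 with DESeq2 or without any 1 progenitor or intermediate library. It fell to 2 with no low-count filter or with library size alone, which called 4233 of all 21285 genes lower. In smooth muscle against preadipocyte libraries 5 were higher (40.7%) and 8 lower (25.9%), and the higher count fell to 1 without any 1 progenitor or intermediate library, to 2 with DESeq2, to 3 without preadipocyte replicate 1 or smooth muscle replicate 2 and to 0 with no low-count filter. Over all 22 enzymes, preadipocyte libraries had the highest mean for 9 and the lowest for 6, intermediate the highest for 7 and the lowest for 2, smooth muscle the highest for 3 and the lowest for 8, and progenitor the highest for 3 and the lowest for 6. These counts of highest and lowest means were not made over all genes, so nothing particular to the enzymes is read from them. By the F test 14 of 16 differed among the populations, against 79.8% of all genes.

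Acat2, the cytosolic thiolase that starts the pathway, was highest in preadipocyte libraries, at 178, 249 and 136 CPM against 65.2, 68.0 and 56.7 among progenitor. The difference was 1.57 ± 0.18 on the log2 scale (edgeR adjusted p = 2.69e-06), and smooth muscle libraries were at 61.9, 68.2 and 74.3 CPM. Of the Acat2 transcript 65.6% is shared with 2 other genes, so its level is uncertain. Pmvk, the phosphomevalonate kinase, was, like Lss, higher in preadipocyte and smooth muscle than in progenitor libraries, at 12.4 to 13.9 CPM among progenitor, 14.9 to 15.3 among intermediate, 28.2 to 35.7 among preadipocyte and 20.01 to 30.2 among smooth muscle libraries. It was higher than progenitor by 1.262 ± 0.17 among preadipocyte and 0.82 ± 0.17 among smooth muscle libraries. Ebp, a sterol isomerase, and Erg28, a scaffold of the late sterol enzymes, were lowest in smooth muscle libraries. Ebp was at 21.8 to 25.01 CPM there and 43.7 to 49.5 among progenitor, a log2 fold change of -1.005 ± 0.15, and Erg28 at 22.7 to 23.7 CPM against 53.4 to 55.7, a change of -1.24 ± 0.13.

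**Figure D3:**
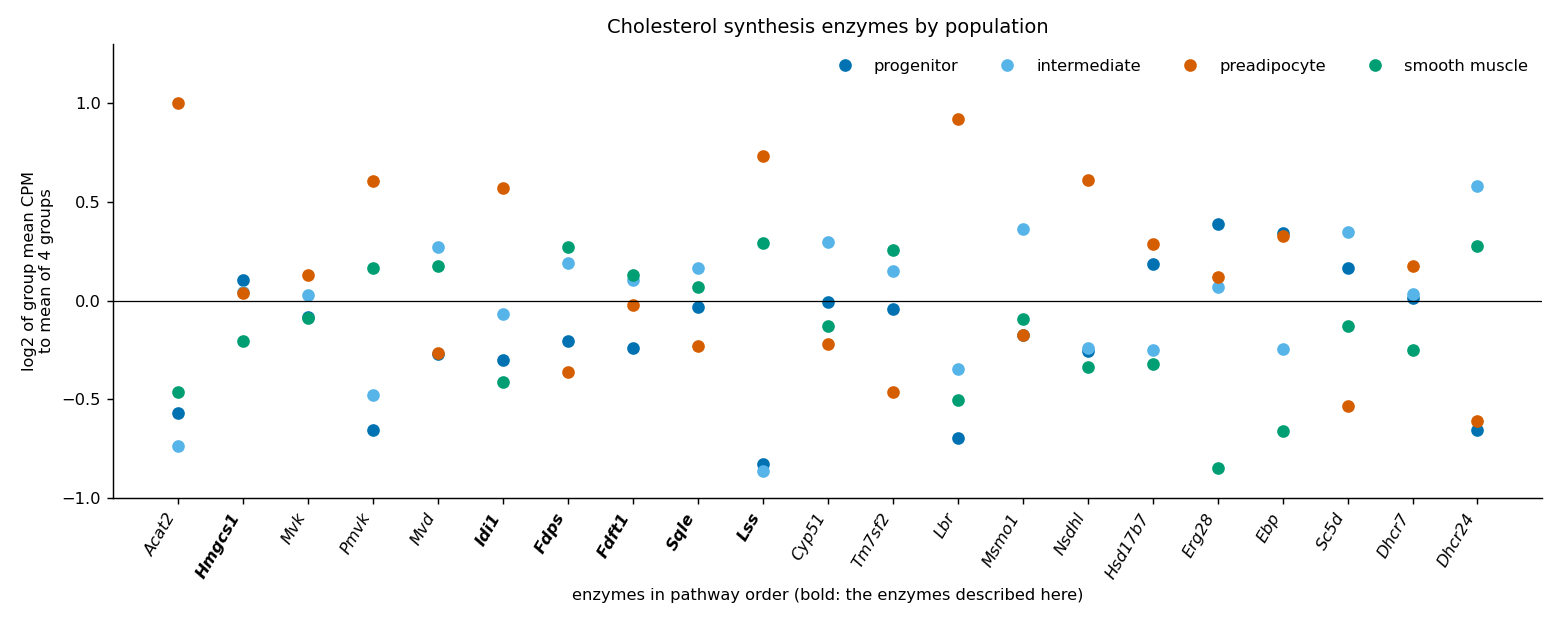
Log2 ratio of each population's mean CPM to the mean of the 4 populations (vertical axis) for 21 of the 22 enzymes. They are in pathway order, with the scaffold Erg28 placed among them (horizontal axis, where bold names are the 6 enzymes described first). Preadipocyte means reach 1.0 at Acat2, 0.92 at Lbr, 0.73 at Lss, 0.61 at Pmvk and Nsdhl and 0.57 at Idi1. They lie below 0 at Fdps, Sqle and Sc5d among others, so no population is highest along the whole pathway. The preadipocyte mean of Lbr leans on replicate 3, with 74.0, 119 and 288 CPM in replicates 1 to 3.

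The regulators of the pathway were not alike. Srebf2, which encodes SREBP-2, was lowest in preadipocyte libraries at 105, 118 and 96.4 CPM, against 145, 148 and 134 among progenitor, 186, 193 and 194 among intermediate and 174, 170 and 171 CPM among smooth muscle libraries. The 4 populations did not overlap. The preadipocyte difference was -0.41 ± 0.11 against progenitor (edgeR adjusted p = 0.00554) and -0.84 ± 0.11 against intermediate (edgeR adjusted p = 9.77e-06). Srebf1, whose products act mainly on fatty acid genes, went the other way, at 266, 396 and 195 CPM among preadipocyte libraries against 76.5 to 95.2 among progenitor, 70.2 to 78.8 among intermediate and 41.2 to 48.7 among smooth muscle libraries. The ratio of Srebf1 to Srebf2 within a library was 2.63 ± 0.670 (SD, n = 3) among preadipocyte and 0.242 to 0.645 in the other libraries. Insig2, the second INSIG gene, was at 49.2 to 53.1 CPM among progenitor, 29.3 to 34.8 among intermediate, 24.4 to 31.4 among preadipocyte and 45.3 to 50.3 among smooth muscle libraries. The ratio of Insig1 to Insig2 was therefore 5.51 ± 0.390 among intermediate, 4.60 ± 1.21 among preadipocyte, 2.63 ± 0.473 among progenitor and 1.65 ± 0.0497 among smooth muscle libraries, and all pairs but intermediate and preadipocyte were free of overlap. Erlin1, whose product is a membrane protein of the endoplasmic reticulum, was at 55.9 to 64.4 CPM among progenitor and 47.7 to 75.9 among preadipocyte against 27.3 to 33.3 in the other 2 populations. Of the 12 other regulators, 3 were higher (25.1% of all genes) and 4 lower (25.9%) in preadipocyte against progenitor libraries. The higher count ran from 5 to 7 without progenitor replicate 2 or 3 or any 1 intermediate library, and the lower count was 2 without progenitor replicate 1 or 3. With library size alone, which shifted the all-gene median log2 fold by 0.39 in this comparison, 8 were higher and 2 lower.

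Of 11 genes of cholesterol uptake and lysosomal release, 8 were lower (25.9% of all genes) and 1 higher (25.1%) in preadipocyte than in progenitor libraries. In smooth muscle against progenitor libraries 8 were lower (23.6%) and 1 higher (30.5%). With 1 library left out, the lower counts ran from 6 to 8 and from 7 to 8. With library size alone they were 6 and 5, and the all-gene median log2 fold shifted by 0.39 and 0.44. That scaling called 2015 of all 21285 genes lower in smooth muscle against progenitor. The median log2 fold change of the 11 was -0.80 for preadipocyte and -0.76 for smooth muscle against progenitor, beside 0.04 and 0.09 over all genes. Lrp1, a large receptor for remnant lipoproteins, was at 176 to 317 CPM among preadipocyte and 454 to 517 among smooth muscle libraries against 1013 to 1086 among progenitor and 1290 to 1322 among intermediate libraries. Vldlr, the VLDL receptor, followed with 17.9 to 25.2, 45.4 to 51.4, 92.5 to 102 and 77.4 to 85.5 CPM in the same order. Scarb1, the HDL receptor, was the 1 gene of the list that was higher in preadipocyte libraries, at 143, 215 and 149 CPM against 36.8 to 51.9 among progenitor, a difference of 1.97 ± 0.17. Lipa, the lysosomal acid lipase, was highest in intermediate libraries at 141 to 158 CPM and at 55.9 to 92.2 CPM in the others.

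**Figure D4:**
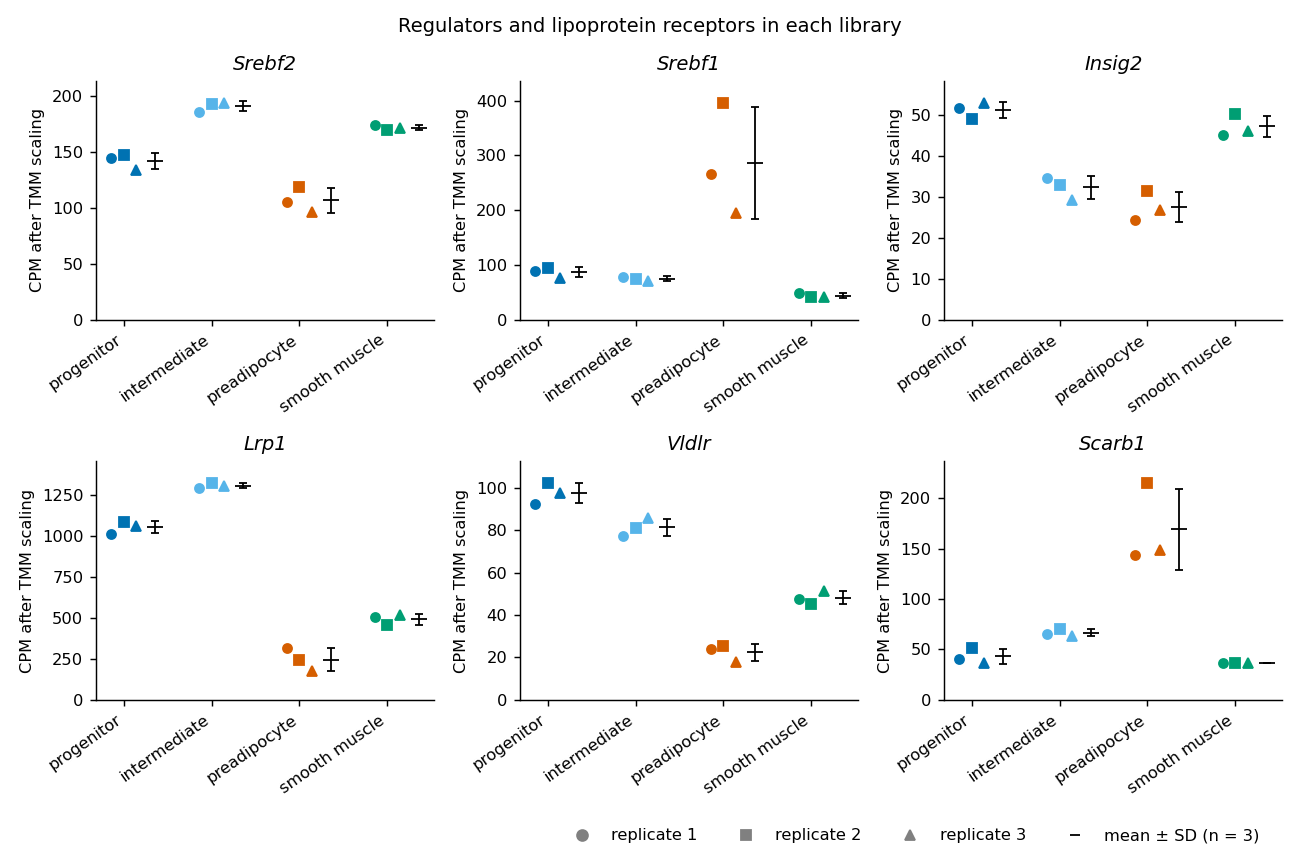
CPM after TMM scaling (vertical axis, from 0) of 3 regulators and 3 lipoprotein receptors in the 12 libraries by population; symbols are replicates and bars are mean ± SD, n = 3. Srebf1 (195 to 396 CPM) and Scarb1 (143 to 215 CPM) are highest in preadipocyte libraries, where Srebf2, Lrp1 and Vldlr are lowest.

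Efflux, esterification and oxysterol genes had a median ratio of highest to lowest population mean of 3.45 over 11 genes, beside 2.98 over all genes. Nr1h3, which encodes the sterol receptor LXR-alpha, was at 21.1 to 43.8 CPM among preadipocyte, 9.58 to 13.3 among progenitor, 1.35 to 2.76 among intermediate and 0.891 to 1.44 CPM among smooth muscle libraries. Abca1, the cholesterol exporter, was at 30.7 to 32.0 CPM among smooth muscle libraries and 74.8 to 136 elsewhere. Soat1, which esterifies cholesterol, was at 12.9 to 16.5 CPM among preadipocyte libraries against 52.3 to 62.3 among progenitor, and Cyp27a1, a sterol hydroxylase, at 16.8 to 24.0 CPM among progenitor and at most 6.53 elsewhere. In preadipocyte against progenitor libraries, 3 of the 11 were higher (25.1% of all genes) and 5 lower (25.9%).

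On the isoprenoid branch, which leaves the pathway after Idi1 and Fdps, 6 of 11 genes were higher (25.1% of all genes) and 1 lower (25.9%) in preadipocyte than in progenitor libraries. With 1 library left out the higher count ran from 4, without preadipocyte replicate 1 or 2, to 8, it was 3 with no low-count filter, and the lower call was lost under 13 of 21 alternatives, among them the omission of any 1 progenitor or intermediate library or of preadipocyte replicate 1 or 2. Pdss1 and Pdss2, subunits of the enzyme that makes the tail of coenzyme Q, were higher by 2.03 ± 0.22 and 1.14 ± 0.20. Rabggtb, a subunit of the enzyme that prenylates Rab proteins, was higher by 1.38 ± 0.18, and Fnta, the farnesyltransferase alpha subunit, gave 0.23 ± 0.13 without passing. Of 8 fatty acid synthesis genes, 2 were higher (25.1% of all genes) and 1 lower (25.9%) in the same comparison, and 1 higher and 2 lower without preadipocyte replicate 2. With library size alone 6 of the 8 were higher, with the all-gene median log2 fold shifted by 0.39. Scd1, a fatty acid desaturase, was at 63.5, 277 and 46.0 CPM among preadipocyte libraries against 32.0 to 48.7 among progenitor, and without preadipocyte replicate 2 its difference was 0.44 (edgeR adjusted p = 0.0519). Its relative Scd2 was at 127 to 222 against 391 to 426 CPM. Fasn, the fatty acid synthase, and Me1, the cytosolic malic enzyme, were highest in intermediate libraries, at 240 to 267 and 127 to 140 CPM, and both were higher there than in progenitor libraries, by 0.71 ± 0.16 and 0.75 ± 0.17. Me1 shares 60.1% of its transcript with 3 other genes, so its level is uncertain.

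Preadipocyte libraries differed among themselves in these genes. Replicate 2 was the highest of the 3 for 7 of 7 genes, for 13 of 16 other enzymes and for 11 of 12 other regulators, beside 37.1% of all genes tested. Its level over the mean of replicates 1 and 3 was 1.86 for Insig1, 1.77 for Lss, 1.45 for Hmgcs1, 1.33 for Idi1 and Sqle, 1.29 for Fdps and 1.09 for Fdft1. The median of this ratio was 1.33 over the 7 genes, 1.21 over the other enzymes and 1.01 over all genes. Lbr, a sterol reductase and protein of the nuclear envelope, went another way, with 74.0, 119 and 288 CPM in replicates 1 to 3. In the same order the summed red blood cell markers were 1010, 1270 and 16900 CPM. The summed cell division genes were 1940, 2550 and 3270 CPM. The source of the difference between these libraries was not tested. The mean centred log2 CPM of the 7 genes was 0.48 in preadipocyte replicate 2 and between -0.17 and 0.13 in the other 11 libraries.

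**Figure D5:**
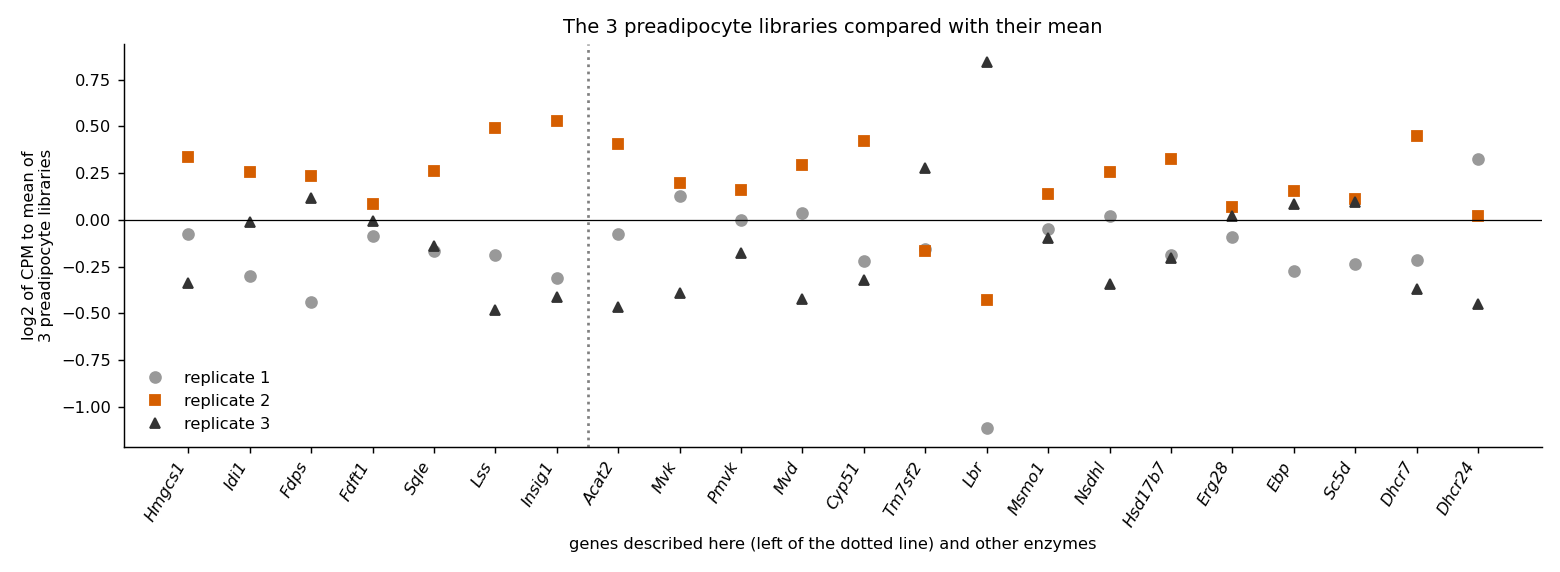
Log2 ratio of CPM in each preadipocyte library to the mean of the 3 (vertical axis) for the 7 genes, left of the dotted line, and 15 of the 16 other enzymes; symbols are replicates. Replicate 2 lies on top for all 7 genes and for 12 of the 15 others, while replicate 3 is highest for Lbr and Tm7sf2.

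Among 7749 protein-coding genes of no list with a mean log2 CPM of at least 4, the 5 whose levels followed the mean of the 7 genes most closely over the 12 libraries were Thap12 (Pearson r = 0.90), Ppm1f (0.89), Tob1 (0.88), Trp53inp2 (0.88) and Agps (0.86). The 12 libraries share populations and scaling, and preadipocyte replicate 2 is the extreme point of the mean they were matched to. Trp53inp2, the widest of the 5, had population means of 43.2 CPM among progenitor, 71.1 among intermediate, 104 among preadipocyte and 65.1 among smooth muscle libraries.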

How the data were processed

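The authors deposited a table of raw counts per gene, as its whole-number values show, and the tests used these counts as deposited. Per the submitters' processing notes, STAR 2.5.2a, DESeq2 1.26.0 and mm10 were used; for the counting tool, its annotation and its strand setting no statement was found (not given in the sources used here). Identifiers were named from GENCODE M21, which gave a symbol to 36480. Groups came from the sample titles. The filter filterByExpr left 21285 genes. Counts were scaled by TMM (factors 0.823 to 1.20) and fitted with edgeR 4.0.16 in R 4.3.3 (glmQLFit, glmQLFTest) in 1 model over all 12 libraries, without a block, with two-sided tests, Benjamini-Hochberg adjustment over all genes tested and calls at 0.05. The SE is the one implied by the F statistic. The biological coefficient of variation common to all genes was 0.2. Levels per kilobase divide by the longest coding transcript. Shared transcript stretches were found with blastn at 97% identity over at least 100 bases. No pair of replicates was 1 library (chi-square per degree of freedom 2.92 to 44.5).

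The genes and gene lists were chosen with earlier results of these data known. Named were all 7 genes, the 4 genes of each other pathway list with the smallest p in the F test plus Srebf2 and Insig2, and the 5 genes of no list most like the mean of the 7; Lbr, Nsdhl, Sc5d and Tm7sf2 were named after their values were seen. Some genes that the rule names are not reported here, though list counts include them. Of the marker genes, 8 had too few counts to be tested and Ahsp was not found. Alternatives were DESeq2-type size factors, library size alone, DESeq2 1.42.0, limma-voom 3.58.1, leaving the filter off, a stricter filter of 5 CPM or more in 3 libraries, the compared populations alone, a replicate block and each library left out; subtraction of an even background was added after seeing the data. The fit was tested on simulated counts.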

Additional observations from a re-analysis of the deposited data

How the results depend on the processing

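Idi1 in its 3 called comparisons, Lss in its 4 and Insig1 in smooth muscle against intermediate and against preadipocyte kept direction and call under all 21 alternatives; Insig1 in smooth muscle against progenitor kept both in 20. Among the 16 folds with an adjusted p under 0.1, 3 reversed: Fdft1 in smooth muscle against progenitor (-0.11) and Sqle in smooth muscle against preadipocyte (-0.14) with no low-count filter, and Sqle in preadipocyte against intermediate (0.032) with library size alone. Of the 26 folds with an adjusted p of at least 0.1, 19 changed sign and 17 were called under at least 1 alternative, so a miss there is no sign of equal levels. Library size alone shifted the all-gene median log2 fold by 0.39 and 0.44 for preadipocyte and smooth muscle against progenitor and by 0.43 and 0.49 against intermediate and DESeq2-type size factors by 0.12 and 0.11 for preadipocyte against progenitor and intermediate. Omitting any 1 progenitor or intermediate library shifted it by 0.21 to 0.24 for preadipocyte against progenitor, by 0.16 to 0.18 against intermediate and by -0.23 for smooth muscle against preadipocyte; no low-count filter moved it most for smooth muscle, by -0.48 against progenitor and -0.44 against preadipocyte. The cause was not tested.

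With library size alone, 4 of the 7 genes were higher and 0 lower in smooth muscle against progenitor, 4 higher and 0 lower in preadipocyte against intermediate, 3 higher in smooth muscle against intermediate and 1 higher in smooth muscle against preadipocyte. Over all genes it called 2015 lower in smooth muscle against progenitor, 4233 lower in preadipocyte against intermediate, and 9321 higher and 1133 lower in smooth muscle against intermediate. With no low-count filter, 0 were higher in intermediate against progenitor, 1 higher and 4 lower in smooth muscle against progenitor, 0 lower in preadipocyte against intermediate, and 3 and 4 lower in smooth muscle against intermediate and preadipocyte, with 4362, 8889 and 4435 of all genes lower in intermediate against progenitor, smooth muscle against progenitor and smooth muscle against intermediate. With at least 5 CPM, 3 were higher in intermediate against progenitor, 2 lower in preadipocyte against intermediate and 1 higher in smooth muscle against preadipocyte, and fewer genes were tested: 3674 higher and 3274 lower in smooth muscle against progenitor, 4718 higher in smooth muscle against preadipocyte and 11157 in the F test. With the compared populations alone, 2 were higher in intermediate against progenitor, 2 lower in smooth muscle against progenitor, 0 lower in preadipocyte against intermediate, and 3 and 4 lower in smooth muscle against intermediate and preadipocyte, with 4332 of all genes lower in smooth muscle against intermediate. In preadipocyte against intermediate, lower calls numbered 0 with DESeq2-type size factors and with DESeq2, and 2 with limma-voom and with the background subtracted. In smooth muscle against preadipocyte, higher calls numbered 1 with limma-voom and 2 with the background subtracted.

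With 1 library left out, calls among the 7 genes ran from 2 to 3 higher and 0 to 2 lower in preadipocyte against progenitor, 0 to 2 higher in intermediate against progenitor, 1 to 2 higher and 1 to 2 lower in smooth muscle against progenitor, 0 to 2 lower in preadipocyte against intermediate, 0 to 1 higher and 2 to 4 lower in smooth muscle against preadipocyte, and 3 to 5 in the F test. Without any 1 progenitor or intermediate library, preadipocyte against intermediate had 0 lower and smooth muscle against preadipocyte 4 lower. Without preadipocyte replicate 2, preadipocyte against progenitor had 2 lower, intermediate against progenitor 2 higher, smooth muscle against progenitor 2 lower, preadipocyte against intermediate 2 lower and smooth muscle against preadipocyte 1 higher. Without preadipocyte replicate 3, smooth muscle had 2 lower against progenitor and 4 lower against preadipocyte, and without replicate 1 preadipocyte against intermediate had 0 lower. Without smooth muscle replicate 1 or 2, intermediate against progenitor had 0 higher, and without replicate 3 smooth muscle against progenitor had 1 higher. Over all genes, intermediate against progenitor ran from 2003 to 3955 higher and from 1574 to 3544 lower.

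Whether the replicate numbers pair the libraries cannot be settled with 3 libraries per population. Same-number deviations correlated at -0.163 to 0.207, with 6 of 18 pairs over 0.1, and other-number deviations at -0.262 to 0.288. Of the 12 libraries, 4 correlated best with their own number. With the replicate block, 0 genes were higher in intermediate against progenitor and 2 lower in preadipocyte against intermediate, and smooth muscle against preadipocyte for Lss passed (-0.41, adjusted p = 0.0408). Depth limits Fdps most, at 15 to 38 counts per library.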
